A study of Mus musculus with 13 samples.

Results

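The subject is the fibrillar and interstitial collagens of mouse mammary organoids: type I (Col1a1, Col1a2), type III (Col3a1), type V (Col5a1, Col5a2), type VI (Col6a1, Col6a2), type XII (Col12a1) and type XIV (Col14a1). Members were taken as every non-control probe of the array whose gene name is one of these 9 symbols or a synonym. The array carried 17 such probes among 41174 gene probes. Of the 17, 13 passed the filter on dim probes, and all 9 genes entered the test with 18274 genes in all. The rule itself works on gene names alone.

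Organoids here are multicellular fragments of epithelium, freed from tissue by enzymatic digestion and differential centrifugation. Normal organoids came from mammary glands #3 and #4 of FVB mice, whose ages are not given in the sources used here. Tumor organoids came from mice carrying MMTV-PyMT, a polyoma middle T oncogene driven by the mouse mammary tumor virus promoter. The largest tumor of each mouse was taken at an age of 12 to 16 weeks, when tumors were poorly differentiated carcinomas. Organoids of either tissue were grown in Matrigel, which is rich in basement membrane proteins, or in a 3 mg/ml gel of collagen I from rat tail, and RNA was collected at day 4. All 4 groups received 2.5 nM FGF2 and insulin-transferrin. The groups were normal Matrigel (mice A, B and D), normal collagen I (mice A, B and C), tumor Matrigel (mice A, B and C) and tumor collagen I (mice A, B and C), with 3 arrays in each. Normal and tumor letters name different mice, and oncogene, mouse and tumor go together, so their parts in a tissue difference cannot be told apart. The gel collagen is rat protein, and the arrays measured mouse RNA.

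Fibrillar collagens are rod-like triple helices that cells secrete as procollagens, trim at both ends and assemble outside the cell into fibrils. Types I and III are the bulk of the interstitial matrix of the mammary gland, type V sits inside type I fibrils and limits their width, type VI forms beaded filaments beside cells, and types XII and XIV lie on fibril surfaces. In the gland fibroblasts and other stromal cells are the best known makers of these chains, while epithelial cells rest on basement membrane collagen.

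Levels are given as log2 of an array's processed intensity minus the 75th percentile of that array, so 0 is the brightness of the probe at the upper quartile and each unit is a doubling. A level of one probe says nothing against that of another. Mean 75th percentiles were 956.9 intensity units in normal Matrigel, 1077 in normal collagen I, 462.1 in tumor Matrigel and 737.6 in tumor collagen I. Between 56.6% and 71.4% of spots were well above background on each array. The tumor Matrigel arrays stood apart in their spike-in controls, at 0.19 to 0.58 over the 75th percentile against -1.75 to -0.94 on the other 9 arrays. The number of arrays limits precision, and a comparison of 3 with 3 allows no exact permutation p under 0.1.

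The probes on which the results turn are shown because several genes had probes that behaved differently. Coordinates are those of the array design in mouse build mm7. For the type I α1 gene, the first sequence is the bright probe at chr11:95060800-95060859 (its first 30 bases), and the next is the other probe bright on all 12 arrays, at chr11:95059777-95059836. That second probe has no stop codon in any of its 3 reading frames.
Col1a1 A_52_P525107: ttttcctttgcattcacctttcaaacttag
Col1a1 A_51_P377094: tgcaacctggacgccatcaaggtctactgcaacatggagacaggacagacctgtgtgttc
For the type V α1 gene, the first is the bright probe at chr2:28044683-28044742 (first 30 bases), and the next lies within chr2:27994034-27996457. Capitals mark codon-spaced triplets that begin with GG, 9 bases apart, the step of 3 codons, in the second of these. It held 6 of them, with no gap at this step along the whole probe. Such an unbroken run of 6 or more was found in 3 of the 41174 probes (0.00729%), and probes with a gap were not counted. Glycine codons begin with GG, and glycine at regular triplet steps is the hallmark of the collagen triple helix.
Col5a1 A_51_P414637: cctgaccttcaaaagatgttctgaggtggt
Col5a1 A_52_P237371: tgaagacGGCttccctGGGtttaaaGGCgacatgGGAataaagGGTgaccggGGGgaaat
For the type III gene, type XII and type XIV, the first 30 bases of the probes used lie within chr1:45585395-45585454, chr9:79680905-79680964 (minus strand) and chr15:55583816-55583875. The last line is the other type XIV probe, at chr15:55405851-55405910, which was not well above background on any of the 12 arrays.
Col3a1 A_51_P515605: ataagccaaactctctgaaaccccagcaaa
Col12a1 A_52_P475805: ccagatgagcagattcaatcagatgctgaa
Col14a1 A_51_P326529: caaaaccatagagtctgttttccagtagtc
Col14a1 A_51_P141467: tttagagaaaagaaagtatccaacaaagcc

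The tissue comparison asked how tumor organoids differ from normal ones in the same gel. In Matrigel, 8 of the 9 collagens were lower in tumor organoids by limma at an adjusted p of 0.05 over all genes, and none was higher. The exception was Col12a1. In collagen I, 7 were lower, with Col5a2 and Col12a1 not passing. The median difference of the members was -2.83 on the log2 scale in Matrigel and -2.63 in collagen I, against 0.09 and 0.05 over all genes tested. The tissue difference was wide across the genome, since 25.8% of genes tested were lower and 25.9% higher in Matrigel, and 5.0% lower and 3.66% higher in collagen I. Averaged over both gels, 8 members were lower, where 24.7% of all genes were. The 3 tumor arrays lay below the 3 normal arrays for 8 members in each gel, as they did for 28.0% of all genes in Matrigel and 14.9% in collagen I. RNA was taken from whole organoids, so fewer cells of a type and less RNA per cell cannot be told apart. Another background correction, normexp, moved the median of all genes by 0.37 in Matrigel and 0.12 in collagen I. It changed the lower share of all calls from 49.9% to 22.6% in Matrigel and from 57.8% to 43.1% in collagen I. Under it 8 members were lower and Col12a1 was higher in Matrigel, and 6 were lower in collagen I.

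**Figure D1:**
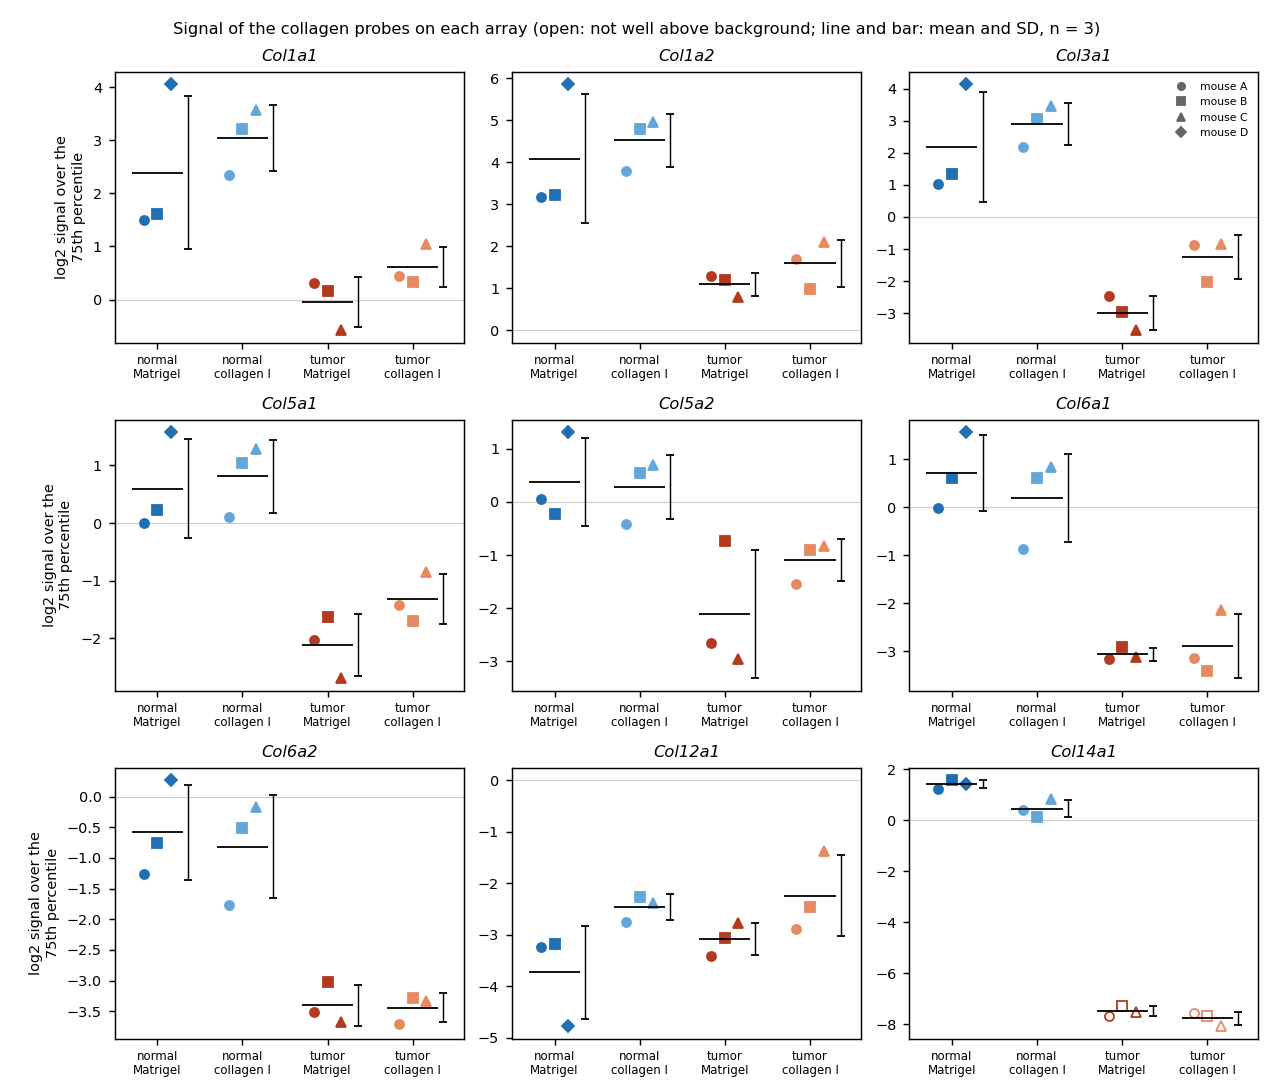
Level of each of the 9 collagens on every array (log2 over the 75th percentile of the array, vertical axis) in the 4 groups of 3 mice, with the group mean as a line, the SD as a bar and open symbols where the probe was not well above background. For every member except Col12a1, all 3 tumor points lie below all 3 normal points within each gel.

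Type I collagen is the main fibril collagen and is built of α1 chains (Col1a1) and α2 chains (Col1a2). Col1a1 stood at 1.51, 1.60 and 4.05 on the normal Matrigel arrays of mice A, B and D and at 2.35, 3.22 and 3.56 on the normal collagen I arrays of mice A, B and C. On tumor arrays of mice A, B and C it stood at 0.31, 0.15 and -0.58 in Matrigel and at 0.45, 0.34 and 1.05 in collagen I. Normal mouse D was far above the other normal Matrigel mice, and no tumor array reached any normal array of the same gel. Col1a1 was lower in tumor organoids by -2.43 ± 0.61 (SE, n = 3 against 3; 5.37-fold; limma adjusted p = 0.00717) in Matrigel. In collagen I the difference was -2.43 ± 0.61 as well (5.38-fold; limma adjusted p = 0.0326).

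Col1a2 followed the same order. Its levels were 3.17, 3.23 and 5.85 in normal Matrigel and 3.79, 4.79 and 4.97 in normal collagen I. Tumor levels were 1.30, 1.21 and 0.78 in Matrigel and 1.71, 0.98 and 2.09 in collagen I, all below every normal array. The differences were -2.99 ± 0.64 in Matrigel (7.93-fold; limma adjusted p = 0.00318) and -2.93 ± 0.64 in collagen I (7.60-fold; limma adjusted p = 0.0171). A second Col1a2 probe was well above background on 1 array, that of normal mouse D in Matrigel, and was not tested.

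Type III collagen, a homotrimer of Col3a1 chains that shares fibrils with type I, had the largest tissue difference of the members bright on every array. Col3a1 levels were 1.04, 1.33 and 4.13 in normal Matrigel and 2.19, 3.04 and 3.47 in normal collagen I. In tumor organoids they were -2.48, -2.96 and -3.53 in Matrigel and -0.86, -2.04 and -0.83 in collagen I. The lowest normal array was above the highest tumor array over both gels. The difference was -5.16 ± 0.72 in Matrigel, which is 35.8-fold (limma adjusted p = 0.000378). In collagen I it was -4.14 ± 0.72, or 17.7-fold (limma adjusted p = 0.00504). Of the other Col3a1 probes, 1 was well above background on 3 normal arrays and no tumor array, and 1 on none of the 12.

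Type V collagen, which starts type I fibrils and limits their diameter, was followed through Col5a1 and Col5a2. Col5a1 stood at 0.00, 0.22 and 1.57 in normal Matrigel and 0.10, 1.05 and 1.28 in normal collagen I. Tumor levels were -2.03, -1.62 and -2.69 in Matrigel and -1.42, -1.69 and -0.85 in collagen I. No tumor array overlapped the normal ones, and Col5a1 was lower by -2.71 ± 0.46 in Matrigel (6.55-fold; limma adjusted p = 0.00101) and by -2.13 ± 0.46 in collagen I (4.38-fold; limma adjusted p = 0.0168). Col5a2, the partner chain, stood at 0.05, -0.23 and 1.31 in normal Matrigel and at -0.41, 0.55 and 0.70 in normal collagen I. Its tumor levels were -2.65, -0.73 and -2.96 in Matrigel and -1.54, -0.90 and -0.83 in collagen I. In Matrigel, tumor mouse B stood well above the other tumor mice, and no array overlapped between tissues in either gel. Col5a2 was lower in Matrigel by -2.49 ± 0.59 (5.60-fold; limma adjusted p = 0.00531). In collagen I the difference of -1.37 ± 0.59 (95% interval -2.67 to -0.07) did not pass (limma adjusted p = 0.190).

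The pair of Col5a1 probes disagreed. The triple helix probe read -3.73, -3.85 and -3.59 in normal Matrigel, -3.57, -3.38 and -2.96 in normal collagen I, -3.56, -3.55 and -3.61 in tumor Matrigel and -3.67, -4.02 and -4.58 in tumor collagen I. It was well above background on all 12 arrays and its normal and tumor arrays overlapped in Matrigel. With p-values adjusted over all probes, its tissue difference was 0.15 ± 0.24 in Matrigel (limma adjusted p = 0.621) and -0.79 ± 0.24 in collagen I (limma adjusted p = 0.0720). The Col5a1 result above therefore holds for the bright probe alone. Why they differ was not tested. For Col1a1, in contrast, the stop-free probe gave -2.45 ± 0.69 in Matrigel (limma adjusted p = 0.0126) and -2.40 in collagen I (limma adjusted p = 0.0603), close in size to the brighter probe. The remaining Col1a1 probe, well above background on 6 of the 12 arrays and on 0 of 3 in tumor Matrigel, did not pass in either gel (limma adjusted p = 0.138 and 0.0882). Its tumor level in Matrigel is a bound, at least 1.03-fold lower.

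**Figure D2:**
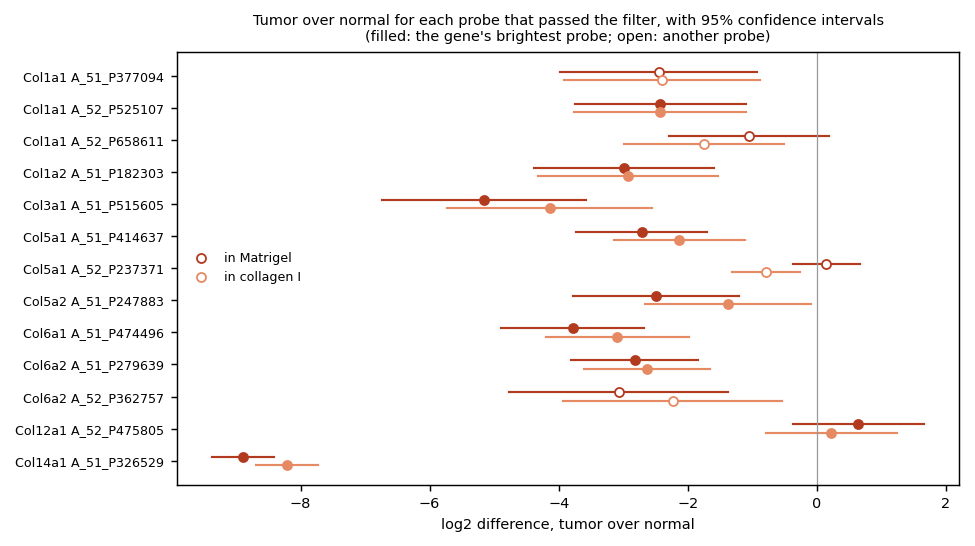
Tumor minus normal difference (log2, horizontal axis, with 95% intervals; filled, the brightest probe of a gene) of every member probe that passed the filter, in Matrigel and in collagen I. The triple helix probe of Col5a1 sits at 0.15 in Matrigel while the other Col5a1 probe sits at -2.71.

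Type VI collagen forms a beaded network next to cells from α1 (Col6a1), α2 (Col6a2) and a longer α3 chain. Col6a1 stood at -0.01, 0.61 and 1.56 in normal Matrigel and at -0.86, 0.61 and 0.83 in normal collagen I. Tumor levels were -3.17, -2.91 and -3.12 in Matrigel and -3.15, -3.40 and -2.14 in collagen I. Every normal array was above every tumor array. The differences were -3.78 ± 0.51 in Matrigel (13.8-fold; limma adjusted p = 0.000292) and -3.09 ± 0.51 in collagen I (8.51-fold; limma adjusted p = 0.00336). Col6a2 stood at -1.26, -0.75 and 0.27 in normal Matrigel and at -1.76, -0.51 and -0.18 in normal collagen I. In tumor organoids it stood at -3.51, -3.03 and -3.68 in Matrigel and at -3.71, -3.29 and -3.33 in collagen I, again without overlap. Col6a2 was lower by -2.83 ± 0.45 in Matrigel (7.09-fold; limma adjusted p = 0.000669) and by -2.63 ± 0.45 in collagen I (6.18-fold; limma adjusted p = 0.00421). Its dimmer probe gave -3.07 ± 0.77 (limma adjusted p = 0.00704) and -2.24 ± 0.77 (limma adjusted p = 0.109). Col6a3, which encodes the α3 chain and is not a member, was also lower, by -3.03 ± 0.54 in Matrigel (limma adjusted p = 0.00124) and by -2.74 in collagen I (limma adjusted p = 0.0102).

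Types XII and XIV are fibril-associated collagens with interrupted helices, and they were at opposite ends of the tissue comparison. Col14a1 stood at 1.25, 1.57 and 1.41 in normal Matrigel and at 0.40, 0.15 and 0.82 in normal collagen I. On the tumor arrays it was not well above background, with readings of -7.66, -7.27 and -7.50 in Matrigel and -7.57, -7.65 and -8.07 in collagen I. Those tumor readings bound the level and do not measure it. Set against a floor per tumor array, the dimmest probe still well above its background, Col14a1 was at least 102-fold higher in normal organoids in Matrigel. In collagen I it was at least 81.4-fold higher. The limma fit used the dim readings themselves (adjusted p = 7.08e-09 in Matrigel and 1.64e-08 in collagen I), so its p-values do not belong to these bounds. The probe passed the filter through the normal arrays alone.

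Col12a1 was the member without a tissue call. Its levels were -3.24, -3.18 and -4.77 in normal Matrigel and -2.75, -2.26 and -2.39 in normal collagen I. In tumor organoids they were -3.41, -3.07 and -2.78 in Matrigel and -2.89, -2.46 and -1.37 in collagen I. Normal and tumor arrays overlapped in both gels, and normal mouse D in Matrigel was the lowest of the 12 arrays. The differences were 0.65 ± 0.46 in Matrigel (limma adjusted p = 0.264) and 0.23 ± 0.46 in collagen I (limma adjusted p = 0.820). In Matrigel it was called higher in tumor organoids under normexp (1.13, limma adjusted p = 0.0292) and with batch 1 arrays of normal mice A and B in place of batch 2 (1.27, limma adjusted p = 0.0154).

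**Figure D3:**
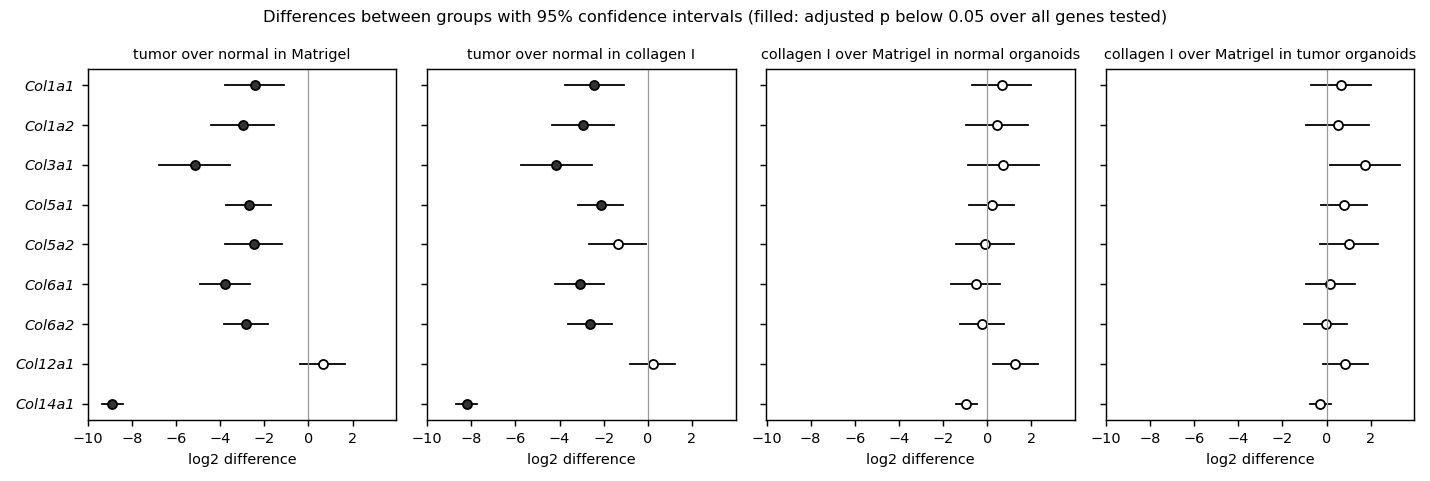
Log2 difference of each member (points, with 95% intervals) for tumor against normal in each gel and for collagen I against Matrigel in each tissue. Tissue differences of 8 members lie below 0, from -1.37 for Col5a2 in collagen I downward, while the gel differences lie between -0.96 and 1.75.

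Leaving out normal mouse D in Matrigel, whose array was the highest of its group for 7 members, the 8 Matrigel calls held, with Col1a1 at -1.59 (limma adjusted p = 0.0109) and Col3a1 at -4.18. In collagen I, 4 members passed without normal mouse B, without normal mouse C or without tumor mouse B, the calls lost each time being Col1a1, Col1a2 and Col5a1. Col1a1 also missed the threshold without tumor mouse A (limma adjusted p = 0.0654) or tumor mouse C (limma adjusted p = 0.0539). With the slide as a fixed block, which leaves 2 residual degrees of freedom, 5 members passed in Matrigel and 1, Col14a1, in collagen I. Within slide 4, tumor mouse B minus normal mouse D in Matrigel was -3.90 for Col1a1, -7.10 for Col3a1 and -4.46 for Col6a1. Within slide 6, tumor mouse C minus normal mouse B in collagen I was -2.17, -3.87 and -2.75 for the same genes.

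The gel comparison asked what collagen I in place of Matrigel did to each tissue. In normal organoids 0 of the 9 members passed by limma, where 0.0438% of all genes did, and 2 members and 1658 genes had an unadjusted p under 0.05. In tumor organoids 0 of 9 passed, where 15.7% of all genes were higher and 12.2% lower, and 1 member and 7417 genes had an unadjusted p under 0.05. The member medians were 0.21 and 0.65, against -0.01 and -0.05 over all genes. The arrays of the 2 gels did not overlap for 2 members in normal and 2 in tumor organoids. The share of all genes without overlap between the gels was not counted. Under normexp the median of all genes in the tumor comparison moved by -0.28, and the lower share of calls from 43.7% to 61.5%.

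Col3a1 had the largest gel difference in tumor organoids, and its 3 collagen I arrays, from -2.04 to -0.83, all lay above its 3 Matrigel arrays. The difference was 1.75 ± 0.72 (3.36-fold; 95% interval 0.15 to 3.35; limma adjusted p = 0.0953). It passed with the mouse as a fixed replicate block (1.75, limma adjusted p = 0.0256), with only the groups compared (limma adjusted p = 0.0395), with batch 1 arrays in place (limma adjusted p = 0.0456) and without normal mouse D (limma adjusted p = 0.0171). Collagen I minus Matrigel within each mouse was 1.15 and 1.71 in normal mice A and B and 1.62, 0.92 and 2.70 in tumor mice A, B and C. On batch 2 arrays, all 5 mice with both gels had more Col3a1 in collagen I. Col1a1 was also higher in collagen I in 5 of 5 mice, by 0.84 and 1.61 in the normal and by 0.14, 0.19 and 1.63 in the tumor mice. The batch 1 Matrigel array of normal mouse A read 2.762 for Col1a1 and 2.545 for Col3a1. Both lay above the collagen I levels of that mouse, 2.35 and 2.19, so the sign in mouse A depends on the array used. The share of all genes above 0 in 5 of 5 mice was not counted. The Col1a1 differences of 0.65 ± 0.61 in each tissue did not pass (limma adjusted p = 0.847 in normal and 0.447 in tumor organoids). Without tumor mouse B in Matrigel, Col5a2 was called higher in tumor organoids in collagen I (1.71, limma adjusted p = 0.0414), against 1.02 ± 0.59 with it (limma adjusted p = 0.218).

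**Figure D4:**
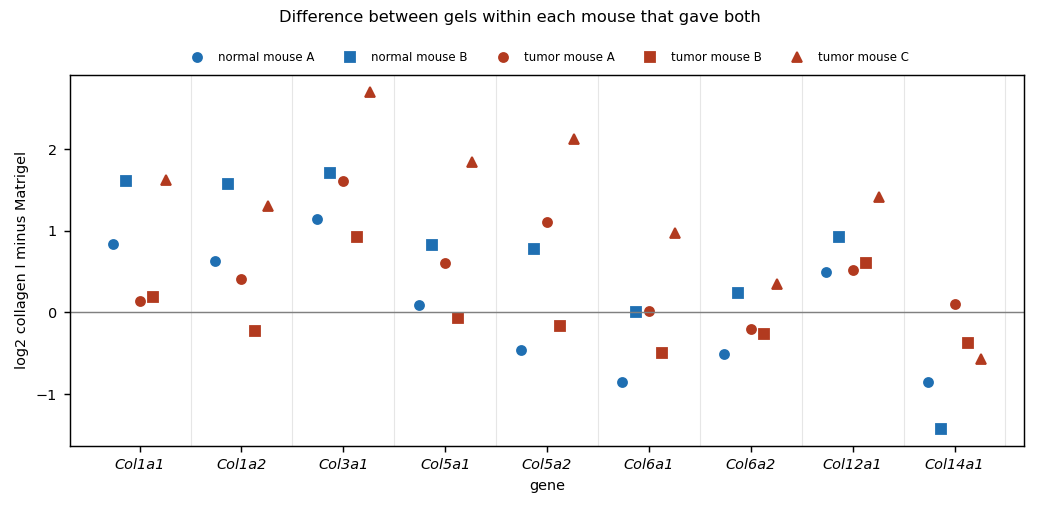
Collagen I minus Matrigel difference (log2, vertical axis) within each of the 5 mice that have both gels, 2 normal and 3 tumor, for the members. On these batch 2 arrays Col1a1, Col3a1 and Col12a1 lie above 0 in 5 of 5 mice, and Col6a2 in 2 of 5.

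Col12a1 was the other member above 0 in every mouse, by 0.49 and 0.92 in the normal and by 0.52, 0.61 and 1.41 in the tumor mice. In normal organoids its 3 collagen I arrays lay above the 3 Matrigel arrays, with a difference of 1.27 ± 0.46 (95% interval 0.24 to 2.29; limma adjusted p = 0.435). Averaged over both tissues the difference was 1.06 ± 0.33 (95% interval 0.33 to 1.78; limma adjusted p = 0.0536), and it passed in 5 of the alternatives, with a lowest limma adjusted p of 0.0110 (1.37) when batch 1 arrays stood in for batch 2. Over all alternatives it ranged from 0.34, under normexp, to 1.37.

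Col14a1 moved the other way. In normal organoids its 3 collagen I arrays lay below the 3 Matrigel arrays, and the difference was -0.96 ± 0.22 (95% interval -1.44 to -0.48; limma adjusted p = 0.149). The difference in mice A and B was -0.85 and -1.42. It passed with arrays weighted by quality (-1.13, limma adjusted p = 0.00493) and with normexp and quantile normalization (-0.92, limma adjusted p = 0.0370). In tumor organoids its readings were not well above background in either gel, so no fold is given. As the mean of both tissues, Col14a1 was the 1 member called, at -0.62 ± 0.15 (limma adjusted p = 0.0254), where 5.43% of all genes were lower and 9.32% higher. That mean includes tumor readings not well above background. The call was lost without normal mouse B in Matrigel (limma adjusted p = 0.0560, where Col12a1 passed in its place). It was also lost without normal mouse A (limma adjusted p = 0.0562) or B (limma adjusted p = 0.0672) in collagen I and without tumor mouse B in Matrigel (limma adjusted p = 0.0546). Leaving out normal mouse D, 3 members passed in that mean, Col1a1 (1.07, limma adjusted p = 0.0298), Col3a1 (1.73, limma adjusted p = 0.0128) and Col14a1.

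Slides that held both gels gave opposite signs for Col1a1 and Col3a1 in normal organoids. Collagen I minus Matrigel was 1.96 for Col1a1 and 2.13 for Col3a1 within slide 3 (mouse C minus mouse B), and -1.70 and -1.95 within slide 4 (mouse A minus mouse D). Col12a1 was 0.79 and 2.03 on these slides and Col14a1 -0.75 and -1.02. In tumor organoids slide 8 gave 1.03 for Col1a1, 2.67 for Col3a1 and -0.11 for Col12a1. Whether the gel difference differed between tissues was tested as an interaction, which passed for 0 of 9 members by limma (0 with an unadjusted p under 0.05), where 2.67% of all genes passed and 4770 had an unadjusted p under 0.05. For Col3a1 that difference of differences was 1.02 ± 1.02 (limma adjusted p = 0.564) and for Col1a1 0.00 ± 0.86 (limma adjusted p = 0.999). For Col14a1 none is given, because its tumor readings were not well above background in either gel.

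Members also varied together among the mice of some groups. Normal mouse D gave the highest Matrigel value for 7 members, Col1a1, Col1a2, Col3a1, Col5a1, Col5a2, Col6a1 and Col6a2, and the lowest for Col12a1. In normal collagen I, mouse A was the lowest for the same 7 and for Col12a1. In tumor collagen I, mouse C was the highest for 7 members, Col12a1 among them. In tumor Matrigel the order was split, with mouse A highest for 3 members, B for 5 and C for 1. The share of all genes that were highest or lowest in the same mouse was not counted. Means over the fibroblast, pericyte, endothelial, leukocyte and adipocyte markers were also highest in mouse D in Matrigel and lowest in mouse A in normal collagen I. The mean over 15 fibroblast markers was -1.85, -2.12 and -0.62 in normal Matrigel mice A, B and D, and -1.79, -0.87 and -0.67 in normal collagen I mice A, B and C. Over 3 adipocyte markers it was -0.45, 0.18 and 2.01 in normal Matrigel. The part of these markers in the spread of the collagens was not tested.

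The genes whose pattern over the 12 arrays was most like the mean of the members were, by Pearson's r, Adamts2 (0.99), Dennd2a (0.988), Pcolce (0.981), Heyl (0.979), Tshz3 (0.976), Col6a3 (0.975), Ebf2 (0.974), Ccl8 (0.973), Slit3 (0.973) and Fstl1 (0.972). For Col1a1 alone they were Loxl1 (0.989), Pth1r (0.976) and Adamts2 (0.973). Adamts2 removes the amino end of procollagen and Pcolce speeds removal of the carboxyl end. These values describe 12 points that share the tissue difference, mice and arrays, so any gene much lower in tumor organoids gives a high r. Col12a1 stood outside, with r from -0.35 to -0.19 with each other member, while the other 28 pairs ranged from 0.783 to 0.989.

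In the RefSeq gene table Col3a1 and Col5a2 are neighbours on chromosome 1 and Col6a2 and Col6a1 on chromosome 10, with 0 protein-coding genes between them. Between tissues in collagen I, Col3a1 passed and its neighbour Col5a2 did not, and the difference between those genes was not tested. The table of RefSeq promoters held 5 of the 9 members. Since type I and type III collagen were both lower in tumor organoids, the 250 bases before the start of Col1a2 (chr6:4505368-4505617) and of Col3a1 (chr1:45311288-45311537), both on the plus strand of GRCm38.p6, are shown. Capitals mark matches on either strand to the CCAAT box, to the TATAAA box or to GGGCGG, and no matches overlap here.
Col1a2 promoter: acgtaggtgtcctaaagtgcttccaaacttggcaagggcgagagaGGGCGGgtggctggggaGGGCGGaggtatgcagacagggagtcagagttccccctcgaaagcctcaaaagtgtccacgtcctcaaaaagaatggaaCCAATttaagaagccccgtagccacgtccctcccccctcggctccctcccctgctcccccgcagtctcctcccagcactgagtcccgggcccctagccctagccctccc
Col3a1 promoter: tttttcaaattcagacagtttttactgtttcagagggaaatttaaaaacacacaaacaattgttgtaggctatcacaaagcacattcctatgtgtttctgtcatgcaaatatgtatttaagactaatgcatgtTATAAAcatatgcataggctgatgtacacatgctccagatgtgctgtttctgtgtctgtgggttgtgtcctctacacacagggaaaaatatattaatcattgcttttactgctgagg
Col1a2 held 1 CCAAT and 2 GGGCGG, and Col3a1 held 1 TATAAA. Of 32851 promoters in the table, 33.8% held CCAAT, 32.7% GGGCGG and 12.4% TATAAA in such a window. A match is a description of the letters and not a site.

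Genes that process, bind or break down collagen were described in lists. Over all genes tested, 25.8% were lower and 25.9% higher in tumor organoids in Matrigel, and 5.0% and 3.66% in collagen I. Between the gels in tumor organoids, 15.7% of all genes were higher in collagen I and 12.2% lower. Counts below are to be set against these shares. Genes of these lists that passed the filter on dim probes through normal arrays alone, which favours a lower call, were not counted. Of 10 trimming and crosslinking genes tested, 6 were lower and 1 higher in tumor organoids in Matrigel (median -1.51) and 5 lower and 1 higher in collagen I (median -0.92). Pcolce, which enhances procollagen cleavage, was lower by -2.85 ± 0.40 in Matrigel (limma adjusted p = 0.000394), and the crosslinking enzyme Lox was at least 3.62-fold lower (limma adjusted p = 0.000428). Loxl4, another lysyl oxidase, was higher by 4.06 ± 0.41 (limma adjusted p = 6.93e-05). Under normexp 2 of this list were higher and 2 lower in Matrigel, with the median at 0.12. Quantile normalization gave 1 higher and 5 lower in Matrigel, with the median at -1.19. In tumor organoids Lox was the 1 gene of the list that rose in collagen I, at least 1.12-fold (limma adjusted p = 0.0178), and 0 of the list were higher there under normexp, with or without quantile normalization.

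Of 16 tested genes that modify collagen inside the cell or help secrete it, 9 were higher and 2 lower in tumor organoids in Matrigel (median 0.81), and 0 higher and 3 lower in collagen I. Those lower in Matrigel were P3h3 (-1.73), a prolyl hydroxylase family member, and Fkbp10 (-2.01), a collagen chaperone. Plod3, a lysyl hydroxylase, was higher by 1.08 in Matrigel. In tumor organoids 8 of the 16 were lower in collagen I, where 12.2% of all genes were, against 3 under normexp and 5 with the authors' values. Among the 8 were Plod1 (-1.24), Plod3 (-0.99) and P4hb (-1.43), a subunit of prolyl hydroxylase.

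Of 15 tested genes for proteins that decorate fibrils or lie beside them, 11 were lower and 1 higher in tumor organoids in Matrigel (median -2.35). In collagen I 8 were lower and 0 higher (median -2.16). All 15 were well above background on every normal array, against 12 to 14 on tumor arrays. Fbn1, the microfibril protein, was at -5.26 in Matrigel and -3.51 in collagen I, and Postn, a matricellular protein, at -4.38 in Matrigel. Under normexp 7 were lower and 2 higher in Matrigel, against 11 and 1 under quantile normalization. In tumor organoids 3 rose (2 under each other scaling) and 1 fell in collagen I, where 15.7% and 12.2% of all genes did. Postn (3.88 ± 0.55, limma adjusted p = 0.00193), Fbn1 (1.61) and Fn1 (1.41) rose and Comp (-2.94) fell.

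Among 26 other collagens tested, 9 were lower and 4 higher in tumor organoids in Matrigel (median -0.02), where 25.8% and 25.9% of all genes were. In collagen I 6 were lower and 2 higher, where 5.0% and 3.66% of all genes were. Col18a1, a basement membrane collagen, was higher in Matrigel by 2.30, and Col9a3, a cartilage fibril-associated chain, was lower by -2.09. Under normexp 5 were lower and 6 higher in Matrigel, against 8 and 4 under quantile normalization. In tumor organoids 2 were higher (0 under normexp) and 3 lower in collagen I, with Col8a2 at 1.49 and Col18a1 at -1.30.

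Of 12 collagen receptors, 5 were lower and 1 higher in tumor organoids in Matrigel, and 2 were lower in collagen I. In Matrigel 3 were lower and 5 higher under normexp, against 7 lower and 1 higher under quantile normalization. Ddr2, a receptor tyrosine kinase for fibrillar collagen, was at -3.33 in Matrigel. In tumor organoids 3 were higher in collagen I (1 under normexp), where 15.7% of all genes were. They were Itga11 (2.04, limma adjusted p = 0.00592), an integrin chain that binds type I collagen, and Antxr1 (1.58) and Antxr2 (1.03). The list of 14 degradation genes includes the protease inhibitors Timp1, Timp2 and Timp3, so its counts do not give a direction of breakdown. Of the 14, 4 were lower and 4 higher in tumor organoids in Matrigel, near the 25.8% and 25.9% of all genes. Fap, which is in this list, passed the filter on dim probes through normal arrays alone, which favours a lower call. In collagen I 4 were lower and 1 higher. The counts were 6 lower and 3 higher in Matrigel under quantile normalization, and 1 lower and 1 higher in collagen I under normexp. Mmp13, a collagenase, was the 1 that rose in collagen I in tumor organoids (3.06, limma adjusted p = 0.0110). Of 14 TGF-beta ligands and targets, 5 were higher and 0 lower in tumor organoids in Matrigel, where 25.9% and 25.8% of all genes were. Under quantile normalization the counts were 4 and 2. Tgfb1 was at 1.01 in Matrigel, and 0 of the list passed in collagen I by limma. In normal organoids 0 genes of any of these lists passed between the gels.

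Markers of other cell types were counted in the same comparisons, where 25.8% of all genes were lower in Matrigel and 5.0% in collagen I. Among the fibroblast markers, Fap, Dpt, Mfap5 and Ebf2 passed the filter on dim probes through normal arrays alone. Such a gene is tested only because it is bright in normal organoids, which favours a lower call. Of 15 fibroblast markers tested, 9 were lower and 2 higher in tumor organoids in Matrigel (median -2.27) and 7 lower in collagen I (median -1.56). Under normexp these became 1 lower and 2 higher, with a median of 0.14, and 0 in collagen I. Quantile normalization gave 7 lower and 2 higher in Matrigel (median -1.76) and 6 lower in collagen I (median -1.58). Normexp with quantile normalization gave 7 of these markers lower and 2 higher in Matrigel (median -0.55). Their mean level ranged over arrays from -2.12 to -0.62 in normal Matrigel, from -1.79 to -0.67 in normal collagen I, from -3.35 to -3.18 in tumor Matrigel and from -3.24 to -2.43 in tumor collagen I. On tumor arrays 10 to 15 of the 15 were well above background, and Pdgfra, a defining fibroblast receptor, was so on 12 of 12 arrays. Pdgfra was lower in tumor organoids in Matrigel (-2.77 ± 0.40, limma adjusted p = 0.000417). Between the gels in tumor organoids 1 fibroblast marker, Pdgfra, was higher in collagen I (1.33, limma adjusted p = 0.0312), 1, Pi16, was lower (-1.13, limma adjusted p = 0.00336), and 13 did not pass. Under quantile normalization, normexp, both together and the authors' values, 0 fibroblast markers were higher there.

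Of 9 pericyte and smooth muscle markers, 7 were lower in each gel (3 in each under normexp). Of 10 endothelial markers, 9 were lower in each (8 and 7 under normexp, with 1 higher in Matrigel). Quantile normalization gave 6 pericyte and 9 endothelial markers lower in Matrigel, and 8 and 10 lower in collagen I. Rgs5, Des, Higd1b, Pecam1, Cdh5, Tek and Tie1 in these lists passed the filter through normal arrays alone. So did the leukocyte markers Ptprc and Laptm5 and the adipocyte marker Plin1. The endothelial mean ranged from -0.95 to 0.34 on normal and from -5.06 to -3.52 on tumor arrays, and Tie1 was not well above background on any tumor array. Of 11 leukocyte markers, 1 was lower and 1 higher in Matrigel (median -0.36) and 6 lower in collagen I. Under normexp 1 was lower and 6 higher in Matrigel (median 1.22) and 3 lower in collagen I, and under quantile normalization 1 was lower and 3 higher in Matrigel. Ptprc was well above background on 0 of 6 tumor arrays. Of 3 adipocyte markers tested, 2 were lower in Matrigel and 1 in collagen I. Of 9 mesenchymal transition genes, transcription factors together with Vim and Cdh2, 4 were lower and 1 higher in Matrigel and 5 lower in collagen I. Under normexp 1 was lower and 3 higher in Matrigel and 0 passed in collagen I. Quantile normalization gave 4 lower and 2 higher in Matrigel and 5 lower in collagen I. The part of any of these cell types in the collagen differences was not tested.

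The 12 luminal markers were well above background on every array, and 9 or 10 of the 10 basal markers were, Oxtr being the exception on the 3 tumor Matrigel arrays. Of the luminal markers, 6 were higher and 1 lower in tumor organoids in Matrigel (3 and 4 under quantile normalization) and 1 lower in collagen I, with group means from 3.21 to 3.72. Of the basal markers, 5 were lower and 1 higher in each gel (0 higher in either gel under quantile normalization or normexp), with group means of 3.61 and 3.73 in normal and 1.47 and 2.17 in tumor organoids.

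**Figure D5:**
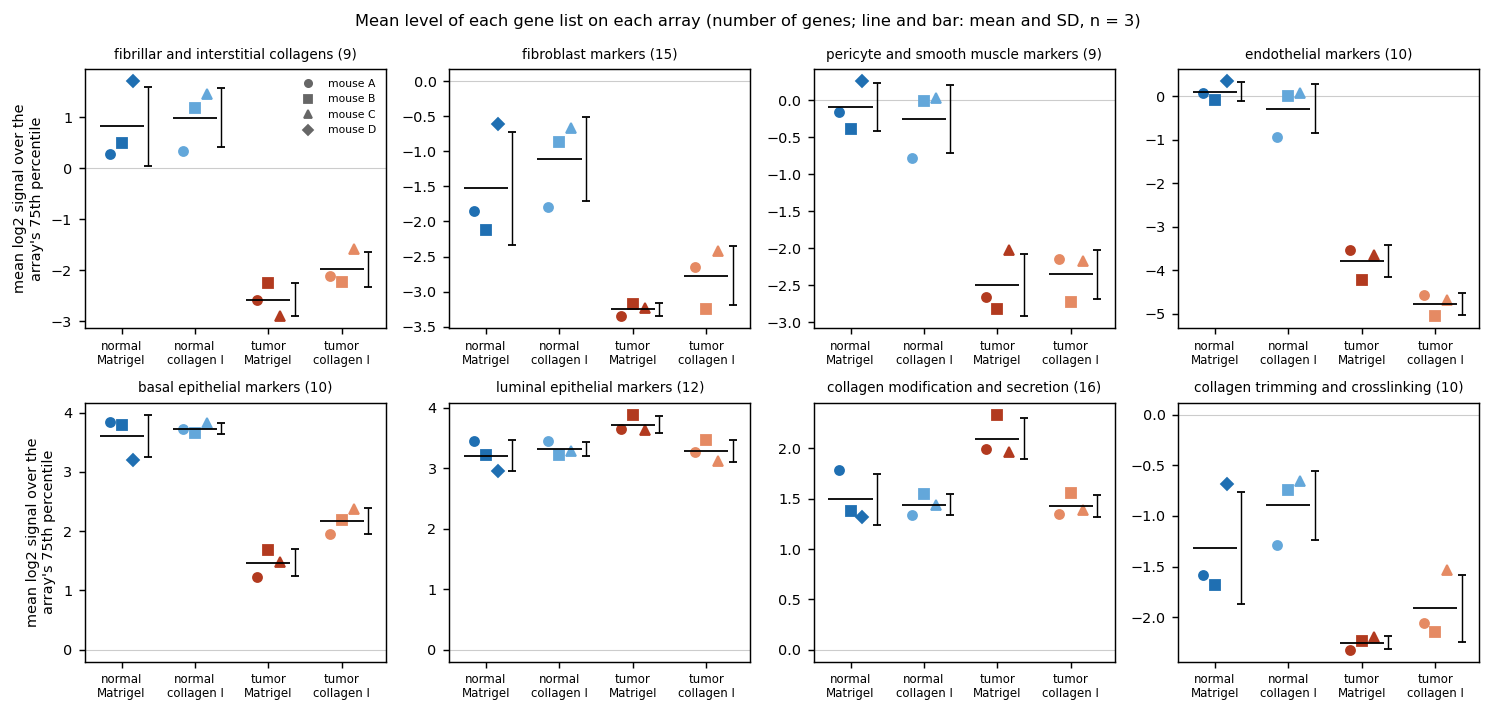
Mean level over the members, over marker lists and over lists of collagen processing genes on every array (log2 over the 75th percentile, vertical axis) in the 4 groups. The members range from 0.28 to 1.71 on normal and from -2.90 to -1.59 on tumor arrays. The fibroblast, pericyte, endothelial and basal epithelial means are lower on tumor arrays too. Within each gel so are the trimming and crosslinking means.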

How the data were processed

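Per the labels' protocols, RNA of organoids was amplified, labelled with Cy3 and hybridised to 1-colour Agilent arrays of 14 hybridisations from 13 samples. The 12 arrays of batch 2 hold all 4 groups. Batch 1 repeats normal Matrigel mice A and B. The mice of a group are different animals per the labels.

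The deposited intensity is Agilent's processed signal, made with Feature Extraction 9.5 per the file headers (9.1 per the submitters' processing notes). The authors' deposited log2 values served as an alternative, with a centring that no source used here gives. Log2 intensity minus each array's 75th percentile was taken, without control or outlier-flagged spots, and spots of a probe were averaged. A probe passed the filter if all arrays of 1 group or more had it well above background, as 26606 did, and the brightest probe stood for its gene. For a gene that no array of a group had well above background, a fold given as "at least" divides the bright group's mean by a floor. The floor is, per array, the dimmest signal that any probe well above background had, or the gene's own signal if higher. A p-value given with such a fold comes from the fit to the readings themselves, dim ones included, and not from the bound.

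limma 3.58.1 (R 4.3.3, and its package data.table, version 1.17.8) was fitted to the 12 arrays with 1 term per group (residual df 8, prior df 2.75). P-values were adjusted by Benjamini-Hochberg over 18274 genes in each of 7 comparisons, with a threshold of 0.05. The code was tested on simulated data. Mouse letters name the same animal in both gels of a tissue. The correlation of same-mouse deviations was 0.24 and -0.24 in normal mice A and B, and -0.06, 0.32 and 0.42 in tumor mice A, B and C.

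The members and the 15 lists of 202 genes were chosen with earlier results of these data known. From each list, up to 4 genes that passed in a comparison were eligible to be named, smallest adjusted p first, and the 10 genes most like the members and the 3 most like Col1a1 by Pearson's r. Alternatives covered background correction, scaling, dim and flagged spots, several probes of a gene, batch, slide, mouse, variances, array weights, the authors' values and each array left out. Figures were drawn with matplotlib 3.10.9.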

Additional observations from a re-analysis of the deposited data

How the results depend on the processing

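No member changed direction in a called result under the 18 alternatives or the 12 arrays left out in turn. The tumor against normal count in Matrigel was 5 with the slide as a fixed block (losing Col1a1, Col1a2 and Col5a2), 9 under normexp and with batch 1 in place (Col12a1 added as higher), 7 with the filter on all 12 arrays, and 8 in every other fit that gave it, with 8 to 8 over arrays left out. In collagen I the count of 7 became 1 with the slide as a fixed block, was 6 or 7 in the other alternatives and ranged from 4 to 7 over arrays left out. Averaged over gels, 8 became 4 with that block, and 7 with the filter on all 12 arrays, which removes Col14a1. It became 9 under normexp and with batch 1 in place (Col12a1 added as higher). In every other fit that gave it the count was 8, with 8 to 8 over arrays left out. With the slide as a random block (correlation 0.198) the counts were 8, 7 and 8. The gel count in normal organoids, 0, became 1 (Col14a1) with normexp and quantile normalization and with array weights. In tumor organoids it became 1 (Col3a1) with batch 1 in place of batch 2, with the mouse as a fixed replicate block and with only the groups compared, and was 0 to 1 over arrays left out. The gel mean over tissues, 1 (Col14a1), became 0 under quantile normalization, normexp, the authors' values, no filter on dim probes, the filter on all 12 arrays (which removes Col14a1) and the fixed slide block. It became 2 (Col12a1 added) with both batches averaged, the mouse as a random replicate block and trended robust variances, and was 0 to 3 over arrays left out. It stayed at 1 with batch 1 in place, and without normal Matrigel mouse B, but as Col12a1 (1.37 and 1.19, limma adjusted p = 0.0110 and 0.0499) in place of Col14a1. With the mouse as a fixed replicate block it was 1, Col3a1 (1.59, limma adjusted p = 0.0446) in place of Col14a1 (-0.71, limma adjusted p = 0.0688). That block could be fitted for gel contrasts alone, and changed no other call. The difference of gel effects stayed at 0 in every alternative that gave it. Causes of these changes were not tested. Signal over background limits Col14a1 in tumor organoids, where its fitted difference in Matrigel ranged from -9.52 to -3.61, the latter under normexp.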

Other observations

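A probe outside the rule, A_51_P146168, which the files name TC1430646 and describe as collagen XII, gave calls that the Col12a1 probe did not. It stood at -1.74, -1.31 and -2.46 in normal Matrigel (mice A, B and D) and at -0.74, -0.42 and -0.19 in normal collagen I. In tumor organoids it stood at -2.83, -2.22 and -1.56 in Matrigel and at -0.94, -0.71 and 0.55 in collagen I. In each tissue all 3 collagen I arrays lay above all 3 Matrigel arrays, and the share of all probes that did so was not counted. It was higher in collagen I in tumor organoids by 1.84 ± 0.44 (limma adjusted p = 0.0125) and as the mean of both tissues by 1.61 ± 0.31 (limma adjusted p = 0.0100). In normal organoids the difference was 1.39 ± 0.44 (limma adjusted p = 0.347). Between tissues it was -0.37 ± 0.44 in Matrigel (limma adjusted p = 0.506). Whether it reports the same transcript as the Col12a1 probe was not tested.

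The batch 1 arrays of normal Matrigel mice A and B read higher than the batch 2 arrays of the same mice for Col1a1, by 1.26 and 0.50, and for Col3a1, by 1.51 and 0.38. They read lower for Col12a1, by -1.30 and -0.57, and for Col14a1, by -0.40 and -0.55. For Col1a1 and Col3a1 in mouse A, the shift between the 2 arrays was larger than the fitted gel difference in normal organoids of 0.65 and 0.73. The labels say that the arrays of mouse B hold the same RNA. For mouse A they do not say so, and its RNA may differ between the batches.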
